A study of Mus musculus with 2 samples.

Results

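The genes described here belong to one signalling route and are the Janus kinases Jak1 and Jak2, the transcription factors Stat3, Stat5a and Stat5b, and the inhibitors Socs1, Socs2, Socs3 and Cish. The 9 genes were chosen by name, as the JAK, STAT and SOCS-family genes of the route, and all 9 had a row among the 19320 features of the deposited table. Their RNA was measured by droplet single-cell sequencing of the 3′ ends of transcripts in dissociated mouse prostate tissue with prostatic intraepithelial neoplasia (PIN) or prostatic adenocarcinoma (PCa). Both tissues came from R26 mTmG/hAR:Osr1 Cre/+ mice on a mixed C57BL/6 and 129S1/SvImJ background, and the mice with PIN were younger than those with PCa. In these mice the Cre driven by Osr1 switches on a human androgen receptor transgene, hARtg, and membrane-bound green fluorescent protein, mGFP, in cells that express Osr1 or descend from such cells. Both groups therefore carry the transgene, each is 1 library, and no mouse without the transgene was analysed here. The table has features called ARQ and EGFP, with no note on what they are, and by name they were read as the transgene and mGFP. The cell names end in 1 of 2 suffixes, and no label says which suffix belongs to which tissue. The cells are therefore called barcode set 1 and barcode set 2, none was assigned to PIN or PCa, and suffix, library and tissue cannot be told apart.

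Cytokines, growth hormone and prolactin act through receptors that have no kinase of their own and hold Janus kinases on their inner tails. A bound receptor brings its kinases together, they phosphorylate STAT proteins, and the phosphorylated STATs pair, enter the nucleus and bind DNA. Suppressors of cytokine signalling and the related Cish are among the genes that STATs switch on, and their proteins damp the receptors and kinases that started the signal. In the prostate epithelium prolactin signals through Jak2 to Stat5, and cytokines of the interleukin-6 family signal mainly to Stat3. The values here are RNA levels, so they do not measure the phosphorylation through which these proteins act.

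Set 1 held 6332 cells and set 2 held 9410, of which 6177 and 9235 were kept after cells called as doublets were left out. The median cell had 17235 unique molecular identifiers (UMIs, 1 for each captured RNA molecule) in set 1 and 14824 in set 2, and 67 barcodes occurred in both sets. Cells were gated on keratins and other markers, which gave 1610 basal, 2025 luminal, 324 proximal luminal, 103 fibroblast and 1045 leukocyte cells in set 1, the last including 703 T and 118 NK cells. NK is a gate name here, for lymphocytes without a Cd3 UMI. Nkg7 and Il2rb were seen in 96.6% and 94.1% of them, but also in 73.1% and 72.1% of T cells. Ncr1 and Klrb1c were seen in only 25.4% and 5.08% of them, against 0.427% and 0.711% of T cells. Whether all are NK cells was not tested. Set 2 gave 293 basal, 7664 luminal, 66 proximal luminal, 156 fibroblast, 144 endothelial and 218 leukocyte cells, the last including 151 macrophages. The sets thus differed in make-up, and values were compared within a class. A cluster of 1923 luminal-gated cells of set 2 was led by Svs5, Pate4 and Svs4, which are secreted by the seminal vesicle. The luminal ratios of members by ARQ and between the sets are therefore also given without the clusters led by markers of another class, which in set 2 are this cluster 0 and clusters 6 and 11. ARQ also appeared where it should be absent, since after thinning each cell to 3000 UMIs it was seen in 3.14% of leukocytes of set 1 and 17.9% of those of set 2, against 37.7% and 63.4% of basal cells and 16.3% and 92.6% of luminal cells. The median UMIs of leukocytes were 3825 and 7401, those of basal cells 11348 and 6034, and those of luminal cells 27929 and 16473. Levels are UMIs per 1000000 UMIs of the class (CPM) with exact Poisson 95% intervals. Each class was sequenced in 1 library per set, so no value has a replicate, no p-value is given, and the intervals cover counting error only.

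On the mm10 build (RefSeq coordinates of GRCm38.p6), Stat5b (chr11:100780731-100859004), Stat5a (chr11:100859351-100885169) and Stat3 (chr11:100886806-100939594) lie side by side, with 346 bases between Stat5b and Stat5a and 1636 between Stat5a and Stat3. Socs3 lies on the same chromosome (chr11:117966079-117970336). Jak1 is at chr4:101151974-101265282, Jak2 at chr19:29251803-29313095, Socs1 at chr16:10783808-10785536, Socs2 at chr10:95383903-95417321 and Cish at chr9:107296659-107302784. Stat5a and Stat5b are close copies, and how far their reads were shared or discarded in counting was not tested, so their levels are uncertain in that respect.

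STAT dimers bind the letters TTCNNNGAA, which read the same on both strands. This pattern was searched in the RefSeq promoter windows, which run from 250 bases before to 50 after a start site. Of the 9 genes, 8 had 1 or more windows, 10 windows in all, and Socs2 had none. The pattern stood in windows of Cish and Socs3 and in those of no other member, and 2726 of all 32851 windows, or 8.3%, held it. The sequences are shown because both genes are known STAT targets and both differed between cells with and without ARQ UMIs. Each is printed 5′ to 3′ on the strand of its gene with the pattern in capitals.
Cish, chr9:107296654-107296683, plus strand: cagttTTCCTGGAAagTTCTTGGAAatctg
Socs3, chr11:117969507-117969525, minus strand: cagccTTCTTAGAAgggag
In Cish 2 copies began at bases 1 and 12 after the start site, and in Socs3 a single copy began at base -154, counted from the start site of its window (chr11:117969317-117969616), which lies inside the RefSeq span of the gene given above and not at its end. A match of letters does not show that a STAT binds there in these cells.

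The orders given next are over the classes with 50 or more cells in a set, and smaller classes, where given, are named with their cell number. Jak1, the kinase shared by most cytokine receptors of the interferon and interleukin-6 type, was highest outside the epithelium in both sets. In set 1 it stood at 510 CPM (448 to 578) in NK cells, 441 CPM (400 to 485) in fibroblasts and 383 CPM (363 to 404) in T cells, neighbours whose intervals overlap. Basal cells followed at 153 CPM (148 to 158), proximal cells at 105 CPM (98.4 to 111) and luminal cells at 94.6 CPM (92.2 to 97.1), and these intervals do not overlap. In set 2 the order was fibroblasts at 368 CPM (327 to 413), endothelium at 284 CPM (259 to 311), macrophages at 155 CPM (134 to 178), basal cells at 149 CPM (134 to 165), proximal cells at 107 CPM (91.2 to 125) and luminal cells at 47.1 CPM (46.1 to 48.2). Only macrophages and basal cells overlapped in that order. Basal cells of the 2 sets thus had near-equal Jak1, while luminal cells of set 1 had more of it than those of set 2.

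Jak2, the kinase of the prolactin and growth hormone receptors, was highest in T cells of set 1, at 149 CPM (137 to 162), followed by NK cells at 97.5 CPM (71.6 to 130), while the 44 other myeloid cells of that set had 200 CPM (162 to 245). The epithelial classes of set 1 lay close together, with proximal cells at 41.3 CPM (37.4 to 45.4), basal cells at 40.2 CPM (37.7 to 42.8) and luminal cells at 32.0 CPM (30.6 to 33.4). Proximal and basal cells did not differ beyond their intervals, and fibroblasts at 26.01 CPM (16.8 to 38.4) could not be set apart from luminal cells. In set 2 endothelium had 79.9 CPM (66.7 to 95.01) and macrophages 70.9 CPM (57.2 to 86.9), with overlapping intervals. Proximal cells had 48.2 CPM (37.7 to 60.8), fibroblasts 39.7 CPM (27.0 to 56.4), luminal cells 30.4 CPM (29.5 to 31.2) and basal cells 24.4 CPM (18.6 to 31.4), and each overlapped its neighbour in this order while fibroblasts, basal and luminal cells were all below endothelium.

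Stat3, the main factor of the interleukin-6 family, was highest in lymphocytes by a wide margin. In set 1 it stood at 2095 CPM (1968 to 2228) in NK cells and 1557 CPM (1517 to 1599) in T cells, which is 5527 UMIs over 703 T cells. Fibroblasts had 256 CPM (225 to 290), luminal cells 91.4 CPM (89.1 to 93.8), proximal cells 83.6 CPM (78.1 to 89.4) and basal cells 69.5 CPM (66.2 to 73.0). The lymphocyte level was a property of most cells and not of a few, since the median T cell had 15.9 Stat3 UMIs per 10000 and 63.7% of T cells had 5 or more Stat3 UMIs, and the median NK cell had 20.3 per 10000. Macrophages did not share it, at 123 CPM (88.0 to 166) in the 29 macrophages of set 1 and 101 CPM (84.9 to 120) in the 151 of set 2. The 19 T cells of set 2 had 898 CPM (676 to 1169) from 55 UMIs, below the T cells of set 1 and above the fibroblasts of set 2. In set 2 fibroblasts had 231 CPM (198 to 267), endothelium 182 CPM (161 to 204), luminal cells 101 CPM (99.7 to 103), basal cells 74.8 CPM (64.4 to 86.4) and proximal cells 65.9 CPM (53.4 to 80.4), the last 2 overlapping.

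Stat5a and Stat5b carry the prolactin, growth hormone and interleukin-2 signal, and in both sets luminal cells had more of each than basal cells. Stat5a stood at 50.3 CPM (48.6 to 52.1) in luminal and 9.94 CPM (8.71 to 11.3) in basal cells of set 1. In set 2 the levels were 99.5 CPM (98.0 to 101) and 20.7 CPM (15.4 to 27.3). The log2 ratio of basal to luminal cells was thus -2.34 in set 1 and -2.26 in set 2, so the gap was near equal while both levels were higher in set 2. Proximal luminal cells lay between, at 19.6 CPM (17.0 to 22.5) and 42.1 CPM (32.3 to 54.0). Stat5b was low in epithelium, with 8.88 CPM (8.16 to 9.66) in luminal and 4.27 CPM (3.48 to 5.19) in basal cells of set 1, and 12.8 CPM (12.3 to 13.4) and 4.07 CPM (1.95 to 7.48) in set 2. T and NK cells of set 1 had both genes at like levels, Stat5a at 119 CPM (108 to 131) and 110 CPM (82.3 to 144), and Stat5b at 118 CPM (106 to 129) and 108 CPM (80.6 to 141). In fibroblasts of both sets and in macrophages and endothelium of set 2 neither gene passed 23.1 CPM. The receptor for prolactin, Prlr, also differed between luminal and basal cells, at 398 against 22.0 CPM in set 1 and 327 against 25.6 CPM in set 2.

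The inhibitors Socs1, Socs2 and Socs3 were highest in fibroblasts or endothelium among the classes with 50 or more cells. Socs3, which blocks gp130 receptors and their kinases, stood at 837 CPM (780 to 896) in fibroblasts of set 1 and 569 CPM (517 to 625) in those of set 2. Macrophages of set 2 had 277 CPM (249 to 307) and endothelium 125 CPM (108 to 143), and T cells of set 1 had 87.1 CPM (77.6 to 97.3). Of the smaller classes of set 1, the 29 macrophages had 506 CPM (432 to 588) and the 36 endothelial cells 263 CPM (203 to 335). The 7 mural (smooth muscle) cells of set 1 had 1575 CPM (1274 to 1925) and the 19 of set 2 had 154 CPM (95.3 to 235). Basal cells had 45.7 CPM (43.0 to 48.5) in set 1 and 55.3 CPM (46.4 to 65.4) in set 2, which overlap. Luminal cells had 21.0 CPM (19.9 to 22.2) in set 1 and 53.1 CPM (51.9 to 54.2) in set 2, which do not. In set 1 luminal and proximal cells, at 21.5 CPM (18.7 to 24.5), lay below basal cells, and in set 2 the intervals of the 3 epithelial classes overlapped. The median fibroblast of set 1 had 3.90 Socs3 UMIs per 10000 and the highest 107. The immediate early genes Fos and Junb were, like Socs3, higher in fibroblasts than in luminal cells. Fos stood at 2589 against 277 CPM in set 1 and 3326 against 672 CPM in set 2. Junb stood at 4707 against 674 CPM and 3029 against 1163 CPM. Basal cells of set 1 had more Socs3 than luminal cells but less Fos. Fos stood there at 132 CPM in cells with ARQ UMIs and 53.7 CPM in cells without. Immediate early genes are also known to be switched on by enzymatic dissociation, which all cells went through. The part of that step in the Socs3 levels was not tested.

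Socs1, the inhibitor best known for interferon receptors, stood at 670 CPM (619 to 724) in fibroblasts of set 1 and 208 CPM (177 to 242) in those of set 2, with the fibroblasts of set 1 above those of set 2. T cells of set 1 had 104 CPM (93.9 to 115) and NK cells 91.3 CPM (66.3 to 123), while macrophages of set 2 had 9.91 CPM (5.28 to 16.9). The 7 mural cells of set 1 had 597 CPM (418 to 826) and the 19 of set 2 had 58.6 CPM (25.3 to 116). Basal cells were above luminal cells in both sets, at 17.6 CPM (15.9 to 19.4) against 9.45 CPM (8.70 to 10.2) in set 1 and 30.5 CPM (23.98 to 38.2) against 10.8 CPM (10.3 to 11.3) in set 2. A single luminal cell of set 1 held 44 of the 589 Socs1 UMIs of its class.

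Socs2, which damps growth hormone signalling, was highest in endothelium of set 2, at 157 CPM (138 to 177), and in fibroblasts, at 128 CPM (106 to 153) in set 1 and 109 CPM (87.0 to 135) in set 2. The 36 endothelial cells of set 1 had 235 CPM. Proximal luminal cells of set 2 had 52.3 CPM (41.3 to 65.4), well above luminal cells at 5.84 CPM (5.48 to 6.22) and basal cells at 17.9 CPM (13.0 to 24.01). In set 1 proximal cells at 17.97 CPM (15.5 to 20.8) and basal cells at 16.9 CPM (15.3 to 18.7) overlapped, and luminal cells had 13.7 CPM (12.8 to 14.6).

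Cish is a target of Stat5 whose protein acts on the same receptors. It ranged from 20.6 CPM (13.6 to 29.95) in macrophages of set 2 to 108 CPM (80.6 to 141) in NK cells of set 1. Among epithelial cells it stood at 53.2 CPM (48.9 to 57.9) in proximal, 44.9 CPM (43.3 to 46.6) in luminal and 34.1 CPM (31.8 to 36.5) in basal cells of set 1. In set 2 luminal cells had 58.2 CPM (57.1 to 59.4), proximal cells 42.1 CPM (32.3 to 54.0) and basal cells 38.6 CPM (31.2 to 47.2), the last 2 overlapping. Fibroblasts of both sets and endothelium and macrophages of set 2 had 20.6 to 32.3 CPM, so Cish did not follow the stromal pattern of the other inhibitors. No Cish UMI was seen in the 29 macrophages of set 1, which allows up to 11.04 CPM.

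**Figure D1:**
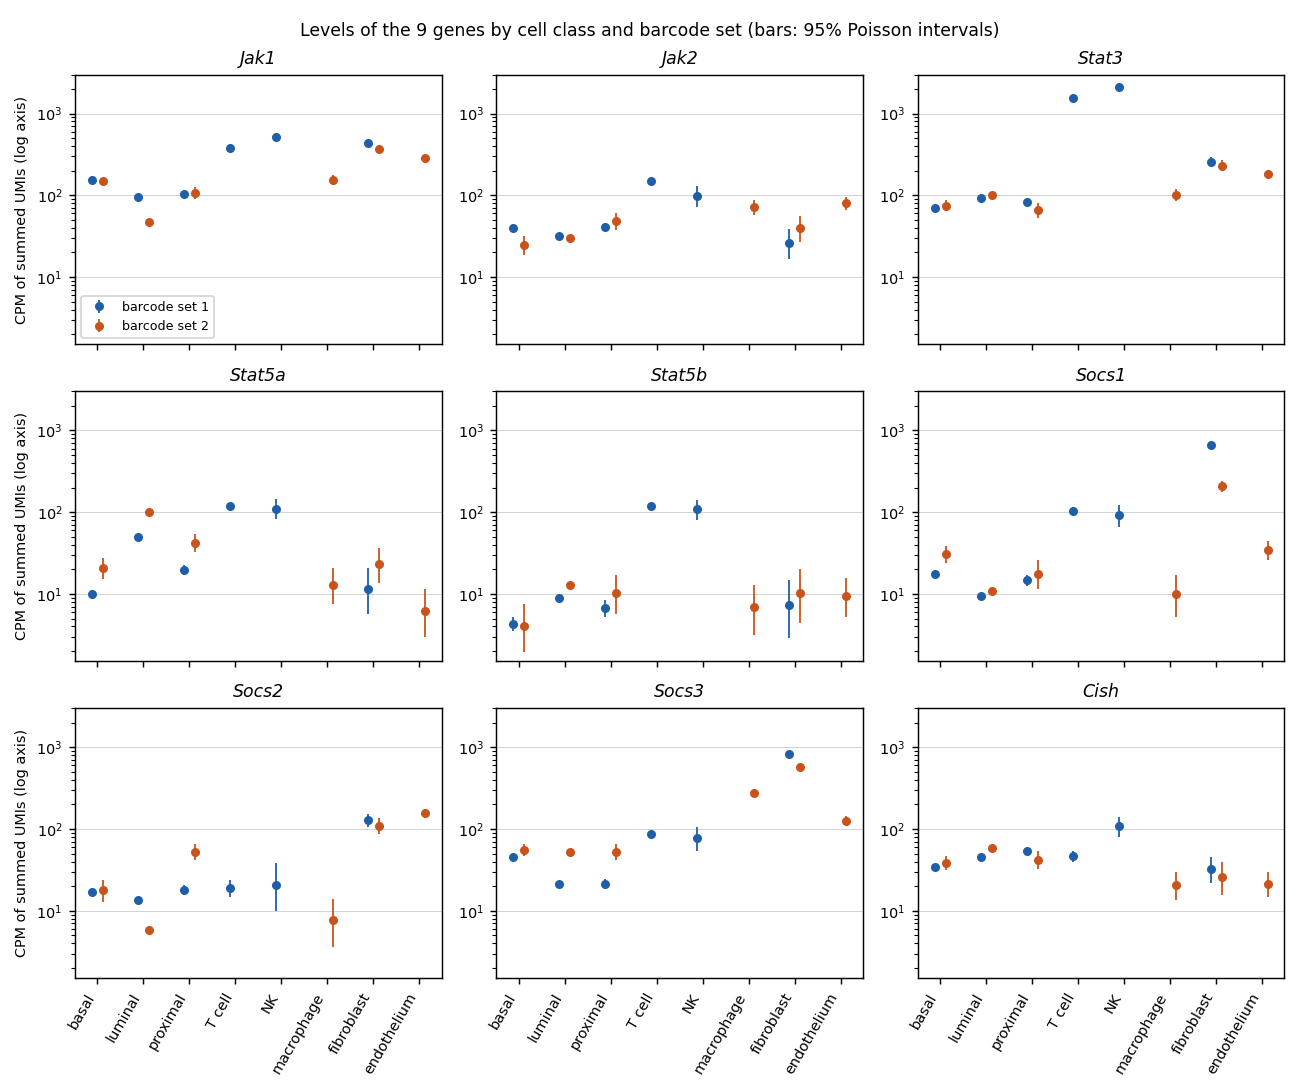
Levels of the 9 genes in CPM on a log axis in each cell class of barcode sets 1 and 2, 1 panel per gene, with bars for exact Poisson 95% intervals, which cover counting error only. Stat3 peaks in T and NK cells of set 1 at 1557 and 2095 CPM, Socs1 and Socs3 peak in fibroblasts, and Stat5a is higher in luminal than in basal cells of both sets.

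Basal cells with and without ARQ UMIs were compared first, since the study asks how hARtg acts in basal cells. In set 1 the 840 basal cells with 1 or more ARQ UMIs were set against the 770 with none, and in set 2 the 216 against the 77. Jak2, Stat5a and Stat5b were higher and Socs2 lower by over 2-fold in ARQ-positive cells of set 1, and in set 2 Socs2 was the only member past 2-fold. ARQ-negative means that no ARQ UMI was seen, not that the transgene was off, since EGFP stood at 93.5 CPM in ARQ-negative basal and 139.7 CPM in ARQ-negative luminal cells of set 1 but at 2730 and 2781 CPM in those of set 2, above the 347 CPM of leukocytes of set 2. A gene was counted as past 2-fold when its CPM ratio reached 2 and both sides together had at least 20 UMIs. In set 1, 3 of 9 members were past 2-fold higher and 1 was lower, where 10.1% of the 11492 genes counted were higher and 3.59% lower. In set 2, 0 of 8 counted members were higher and 1 was lower, where the shares of all 7402 genes were 8.52% and 3.82%. The median log2 ratio of the members was -0.04 in both sets.

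Jak2 stood at 50.7 CPM in ARQ-positive and 21.9 CPM in ARQ-negative basal cells of set 1, from 761 and 189 UMIs. Its log2 ratio was 1.21 (0.98 to 1.45), and in set 2 the levels were 25.1 and 20.9 CPM with a ratio of 0.27 (-0.77 to 1.47), an interval that holds both no difference and the value of set 1. Across bins of ARQ in set 1 Jak2 stood at 21.9 CPM in the 770 cells with 0 ARQ UMIs, 32.4 CPM in the 282 with 1 to 4, 53.9 CPM in the 449 with 5 to 19 and 64.4 CPM in the 109 with 20 or more. A cell needs depth to hold 20 ARQ UMIs, and the median ARQ-positive basal cell of set 1 had 13968 UMIs against 9669.5 for the ARQ-negative one. Jak1 went the other way, at 140 CPM in ARQ-positive and 176 CPM in ARQ-negative cells of set 1, a log2 ratio of -0.33 (-0.43 to -0.24), and at 143 and 174 CPM in set 2, a ratio of -0.28 (-0.65 to 0.11).

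Stat5a stood at 12.5 and 5.57 CPM in ARQ-positive and ARQ-negative basal cells of set 1, a log2 ratio of 1.16 (0.70 to 1.65), and at 21.2 and 18.6 CPM in set 2, a ratio of 0.19 (-0.92 to 1.49). Stat5b gave 5.39 and 2.32 CPM in set 1, from 81 and 20 UMIs, a ratio of 1.22 (0.50 to 2.00), and only 7 and 3 UMIs in set 2. Both genes thus rest on few molecules in basal cells. Stat3 stood at 68.8 against 70.9 CPM in set 1, a ratio of -0.04 (-0.19 to 0.10), although with graph clusters in place of gates it was -0.20 (-0.35 to -0.04) and within cluster 2, described below, -0.42 (-0.70 to -0.14). It was lower in ARQ-positive cells of set 2, at 69.0 against 102 CPM, a ratio of -0.57 (-1.06 to -0.04).

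Socs2 and Socs3 were lower in ARQ-positive basal cells of both sets, with intervals clear of 0 over all UMIs. Socs2 stood at 11.4 CPM in ARQ-positive and 26.6 CPM in ARQ-negative cells of set 1, a log2 ratio of -1.22 (-1.52 to -0.93). In set 2 it stood at 14.8 and 32.5 CPM, from 30 and 14 UMIs, a ratio of -1.14 (-2.10 to -0.11). Over the ARQ bins of set 1 it was 26.6, 16.1, 10.97 and 6.86 CPM, and over the 3 lower bins of set 2, with 77, 102 and 105 cells, it was 32.5, 24.9 and 11.05 CPM, so the level was lower in each next bin of both sets. Socs3 stood at 40.7 against 54.5 CPM in set 1, a ratio of -0.42 (-0.60 to -0.25), and at 48.3 against 88.2 CPM in set 2, a ratio of -0.87 (-1.42 to -0.29). With each cell thinned to 3000 UMIs Socs3 was -0.19 (-0.56 to 0.17) in set 1 and -0.75 (-1.57 to 0.12) in set 2, and Socs2 was -1.69 (-2.40 to -1.04) and -0.63 (-2.16 to 1.07), so of these Socs2 of set 1 alone kept an interval clear of 0. Socs1 gave 15.97 against 20.4 CPM in set 1 and 32.0 against 23.2 CPM in set 2, opposite directions of which only the first has an interval clear of 0. Cish gave 36.0 against 30.7 CPM in set 1, a ratio of 0.23 (0.01 to 0.45), and 40.9 against 27.9 CPM in set 2, a ratio of 0.55 (-0.33 to 1.56).

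Basal cells of set 1 fell mainly into graph clusters 1 and 2, whose leading genes include Krt5, Krt14 and Col17a1, and these held different shares of the 2 sides. Cluster 1 held 76.1% of ARQ-negative and 20.4% of ARQ-positive cells, and cluster 2 held 21.6% and 64.2%. A further 11.4% of ARQ-positive cells lay in cluster 4, led by Gm12888 and Spink1 and by no basal marker. Within cluster 2 Jak2 stood at 46.7 against 27.8 CPM, a log2 ratio of 0.75 (0.32 to 1.21), and within cluster 1 at 28.2 against 19.8 CPM, a ratio of 0.51 (0.08 to 0.93). The Jak2 difference was thus smaller within each cluster than over all basal cells. Socs2 within cluster 2 stood at 9.64 against 32.3 CPM, a ratio of -1.74 (-2.25 to -1.23), and within cluster 1 at 17.2 against 25.8 CPM, a ratio of -0.58 (-1.08 to -0.11). Socs3 had intervals that include 0 within both clusters, at 0.14 (-0.13 to 0.41) and -0.18 (-0.56 to 0.22), while Jak1 was lower in cluster 2 at -0.52 (-0.69 to -0.34) and at 0.03 in cluster 1 (-0.13 to 0.19). In set 2 cluster 6 held 88.4% of ARQ-positive and 96.1% of ARQ-negative basal cells. Within it Jak2 stood at 20.3 against 19.9 CPM, a ratio of 0.03 (-1.12 to 1.36), and Jak1 was at -0.12 (-0.50 to 0.27). Socs2 at -1.16 (-2.25 to -0.01) and Socs3 at -0.70 (-1.255 to -0.11) were lower there, with intervals clear of 0. With basal cells restricted to clusters named basal, an alternative added after the data were seen, the ratios of set 1 were 0.97 for Jak2, 0.76 for Stat5a, 0.84 for Stat5b and -1.24 for Socs2, so Socs2 alone stayed past 2-fold. Leukocyte markers moved with ARQ too, since their summed level was 79.2 CPM on the ARQ-positive and 13.2 CPM on the ARQ-negative side of set 1, of which Srgn made up 74.2 and 9.28 CPM, against 6640 CPM in leukocytes of that set. The other 5 of the 6 markers were at 2.995 CPM or less on either side, and their part in these ratios was not tested.

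**Figure D2:**
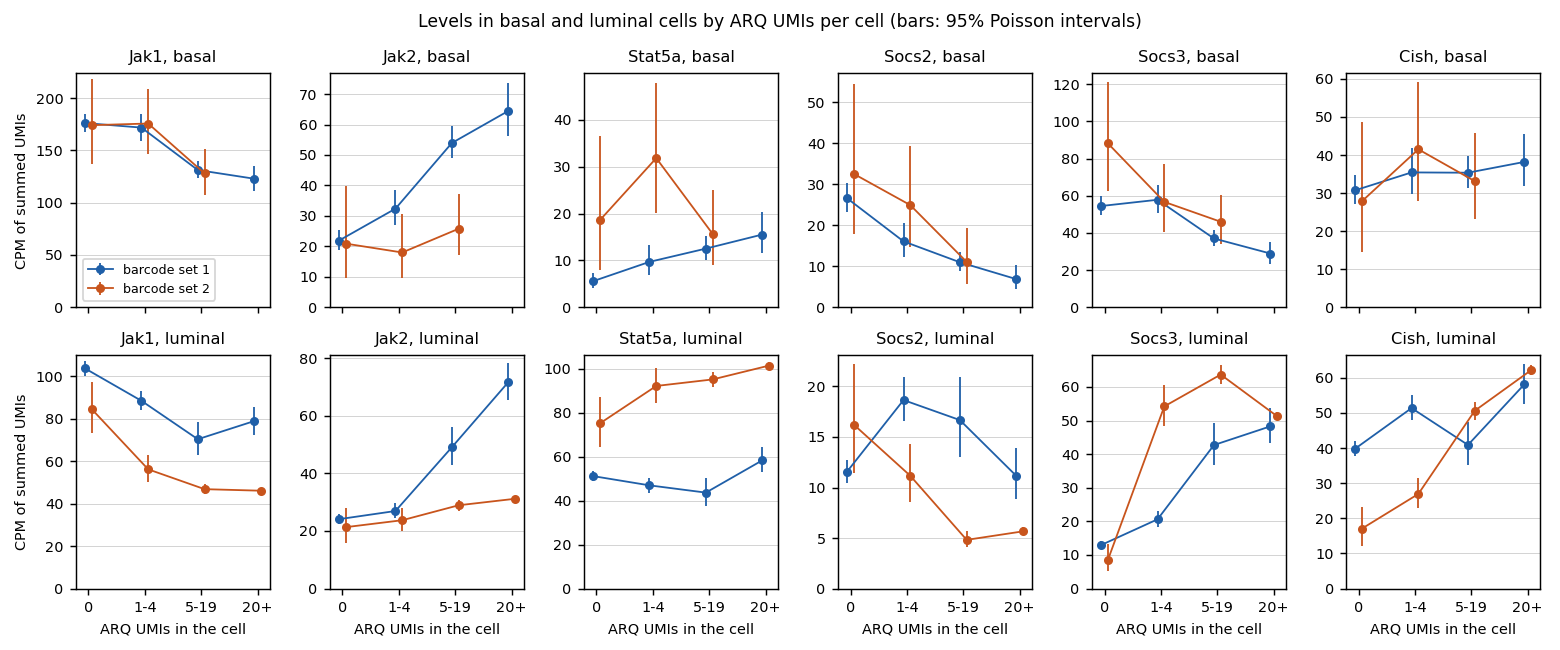
Levels of Jak1, Jak2, Stat5a, Socs2, Socs3 and Cish in CPM by the number of ARQ UMIs per cell (0, 1 to 4, 5 to 19, 20 or more) in basal and luminal cells of both sets, with bars for exact Poisson 95% intervals and no point for a bin with too few cells. In basal cells of set 1 Jak2 goes from 21.9 to 64.4 CPM and Socs2 from 26.6 to 6.86 CPM over the bins, and in luminal cells of set 1 Socs3 goes from 13.0 to 48.3 CPM.

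Luminal cells were split at 5 or more ARQ UMIs against none, because ARQ UMIs also appear in cells that should lack them and luminal cells are deep. This set 308 ARQ-high against 1240 ARQ-negative cells in set 1 and 6983 against 164 in set 2. Socs3 was past 2-fold higher in ARQ-high cells of both sets, with Jak2 beside it in set 1 and Socs1 and Cish beside it in set 2, and Socs2 was past 2-fold lower in set 2. In set 1, 2 of 9 members were higher and 0 lower, where 7.63% and 9.2% of 12615 genes were. In set 2, 3 of 9 were higher and 1 lower, where 11.4% and 25.4% of 14060 genes were. The median over all genes was -0.14 in set 1 and -0.23 in set 2, against member medians of 0.23 and 0.49. The ARQ-high cells were the deeper ones, at a median of 35241 against 26372 UMIs in set 1 and 17366 against 11654 in set 2.

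Socs3 stood at 46.1 CPM in ARQ-high and 13.0 CPM in ARQ-negative luminal cells of set 1, a log2 ratio of 1.83 (1.65 to 2.02). In set 2 it stood at 53.7 and 8.53 CPM, from 8434 and 20 UMIs, a ratio of 2.65 (2.02 to 3.36). In both sets the luminal direction was thus opposite to that of basal cells over all UMIs. The basal intervals, however, include 0 within clusters 1 and 2 of set 1 and, after thinning, in both sets. Within cluster 6 of set 2 the basal ratio was -0.70 (-1.255 to -0.11), an interval clear of 0. Over the ARQ bins Socs3 was 13.0, 20.6, 42.7 and 48.3 CPM in set 1 and 8.53, 54.2, 63.7 and 51.3 CPM in set 2, so that in set 2 the step lay between cells with 0 and with 1 to 4 ARQ UMIs and the highest bin was not the highest level. Cish stood at 59.95 against 17.1 CPM in set 2, from 9420 and 40 UMIs, a ratio of 1.81 (1.37 to 2.30), and at 51.6 against 39.8 CPM in set 1, a ratio of 0.37. Socs1 stood at 14.7 against 7.72 CPM in set 1, a ratio of 0.92 (0.64 to 1.21), and at 11.02 against 4.69 CPM in set 2, a ratio of 1.23 (0.39 to 2.24). Without clusters 0, 6 and 11, an alternative added after the data were seen, the ratios of set 2 were 3.42 (2.49 to 4.55) for Socs3, 2.02 for Cish and 2.17 for Socs1, and without the cells that held any UMI of the 4 seminal vesicle genes they were 2.18, 1.91 and 0.82 (-0.17 to 2.04), so that Socs1 was then short of 2-fold.

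Jak2 stood at 63.1 CPM in ARQ-high and 24.1 CPM in ARQ-negative luminal cells of set 1, a log2 ratio of 1.39 (1.24 to 1.53), and at 30.8 and 21.3 CPM in set 2, a ratio of 0.53 (0.13 to 0.96). The direction was that of basal cells, and the 2 intervals do not overlap. Jak1 was again lower in ARQ-high cells, at 75.6 against 104 CPM in set 1, a ratio of -0.46, and at 46.2 against 84.5 CPM in set 2, a ratio of -0.87 (-1.07 to -0.66). Jak1 was thus lower and Jak2 higher on the side with ARQ UMIs in all 4 comparisons, although both intervals of basal cells of set 2 include 0 and the ARQ-negative cells of set 2 also hold EGFP. Within basal cluster 6 of set 2 Jak2 was at 0.03 (-1.12 to 1.36). Within cluster 0 of luminal cells of set 1, described below, Jak1 was not lower, at a ratio of 0.22 (-0.04 to 0.47). Stat5a stood at 52.7 against 51.1 CPM in luminal cells of set 1, a ratio of 0.04 (-0.09 to 0.18), and at 100 against 75.1 CPM in set 2, a ratio of 0.42. Stat3 gave 91.3 against 89.4 CPM in set 1 and 103 against 73.4 CPM in set 2, a ratio of 0.49, and Stat5b gave ratios of 0.23 and 0.16. Socs2 stood at 13.3 against 11.6 CPM in set 1, a ratio of 0.20 (-0.08 to 0.47), and at 5.50 against 16.2 CPM in set 2, a ratio of -1.56 (-2.03 to -1.05). Without clusters 0, 6 and 11 the ratios of set 2 were -0.85 for Jak1, 0.58 for Jak2, 0.497 for Stat3, 0.32 for Stat5a, 0.08 for Stat5b and -1.56 for Socs2, each in the direction over all luminal cells.

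**Figure D3:**
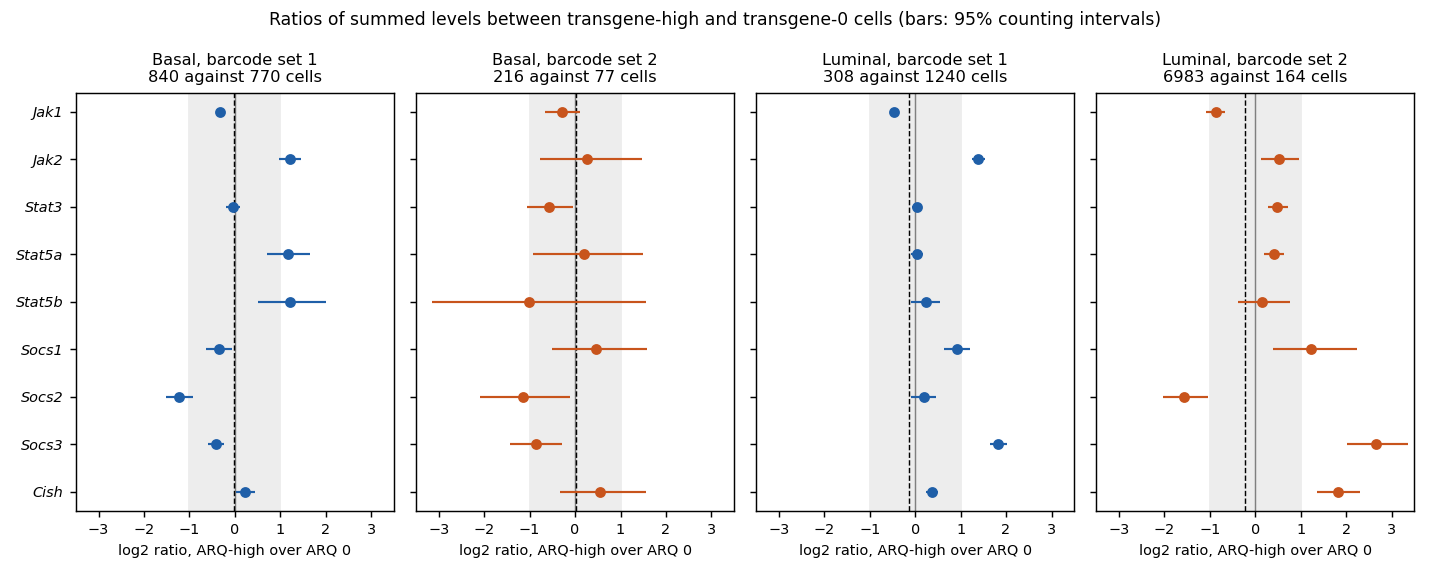
Log2 ratio of CPM in cells with ARQ UMIs over cells without them for each member, in basal (1 or more against 0 ARQ UMIs) and luminal cells (5 or more against 0) of both sets, with 95% intervals that cover counting error only, a grey band for differences short of 2-fold, a dashed line at the median of all genes, and Stat5b in basal cells of set 2 from 7 and 3 UMIs. Jak1 lies below 0 and Jak2 above 0 in all 4 comparisons, and Socs3 lies below 0 in basal and above 0 in luminal cells, at -0.42 and -0.87 against 1.83 and 2.65.

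Luminal cells with and without ARQ UMIs fell largely into different clusters. In set 1, 71.8% of ARQ-high cells lay in cluster 4, led by Gm12888 and Spink1, while 49.8% of ARQ-negative cells lay in cluster 0, led by Clu and Krt6a, 30.9% in cluster 3, led by 9530053A07Rik and Tgm4, and 14.7% in cluster 5, led by Wfdc3 and Msmb. In set 2, 53.0% of ARQ-negative cells but 0.845% of ARQ-high cells lay in cluster 8, led by 9530053A07Rik and Ren1. Apart from cluster 0 of set 1, the leading genes of these clusters include secretory proteins of the gland, such as Spink1, Tgm4 and Msmb, and the lobes make different ones. Those of cluster 0 of set 1 include the keratin Krt6a.

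Over all cells of a cluster the members differed widely, and the 2 led by 9530053A07Rik had the lowest Socs3. Socs3 ranged from 2.71 CPM in cluster 3 to 46.0 CPM in cluster 4 of set 1, and from 8.403 CPM in cluster 8 to 70.2 CPM in cluster 3 of set 2, which is led by Prr9. Cish was 19.01 and 20.7 CPM in the 2 clusters led by 9530053A07Rik and reached 87.7 CPM in cluster 3 of set 2. Jak2 stood at 73.0 CPM in cluster 4 of set 1 and at 16.9 to 40.5 CPM in each of the other luminal clusters named in the plot of levels by luminal cluster. Stat5a ranged from 21.0 CPM in cluster 0 of set 1 and 23.999 CPM in cluster 12 of set 2 to 112 CPM. The part of cluster make-up in the ratios by ARQ was not tested beyond the 2 luminal clusters that held at least 30 cells on each side.

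Within cluster 0 of set 1, with 33 ARQ-high and 617 ARQ-negative cells, Jak2 stood at 41.8 against 26.9 CPM, a log2 ratio of 0.64 (0.15 to 1.09). Socs3 there stood at 27.2 against 16.8 CPM, a ratio of 0.69 (0.08 to 1.26). Both directions were those of all luminal cells at less than their size. Jak1 in this cluster was at 0.22 (-0.04 to 0.47), Cish at -0.13 (-0.59 to 0.30) and Stat5b at -0.27 (-1.75 to 0.89). These were opposite in sign to all luminal cells of set 1, with intervals that include 0. Stat3, Stat5a, Socs1 and Socs2 kept their sign. Within cluster 8 of set 2, with 59 and 87 cells, Socs3 stood at 14.7 against 2.93 CPM, from 25 and 5 UMIs, a ratio of 2.33 (0.92 to 4.07). Socs2, Jak1 and Jak2 had intervals in cluster 8 that include 0, at -0.87 (-2.02 to 0.21), -0.33 (-0.69 to 0.04) and 0.38 (-0.30 to 1.07). Genes used as markers of other classes also moved with ARQ in set 2, where the summed level in ARQ-high against ARQ-negative cells was 1997 against 61.4 CPM for the 4 seminal vesicle genes and 221 against 130 CPM for the 6 fibroblast genes. Lower in ARQ-high cells were the basal markers at 6.92 against 34.1 CPM, proximal at 63.3 against 203 CPM, endothelial at 10.2 against 35.8 CPM and leukocyte at 3.96 against 8.53 CPM. In set 1 luminal markers stood at 10910 against 20533 CPM, mural at 1.48 against 16.5 CPM, leukocyte at 12.6 against 21.9 CPM and fibroblast at 84.3 against 56.5 CPM. The fibroblast sums were nearly all Dcn. Over all luminal cells it stood at 215 CPM in set 2 and 77.9 CPM in set 1, and each other fibroblast gene at 0.436 CPM or less. The part of these differences in the members' ratios was not tested.

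**Figure D4:**
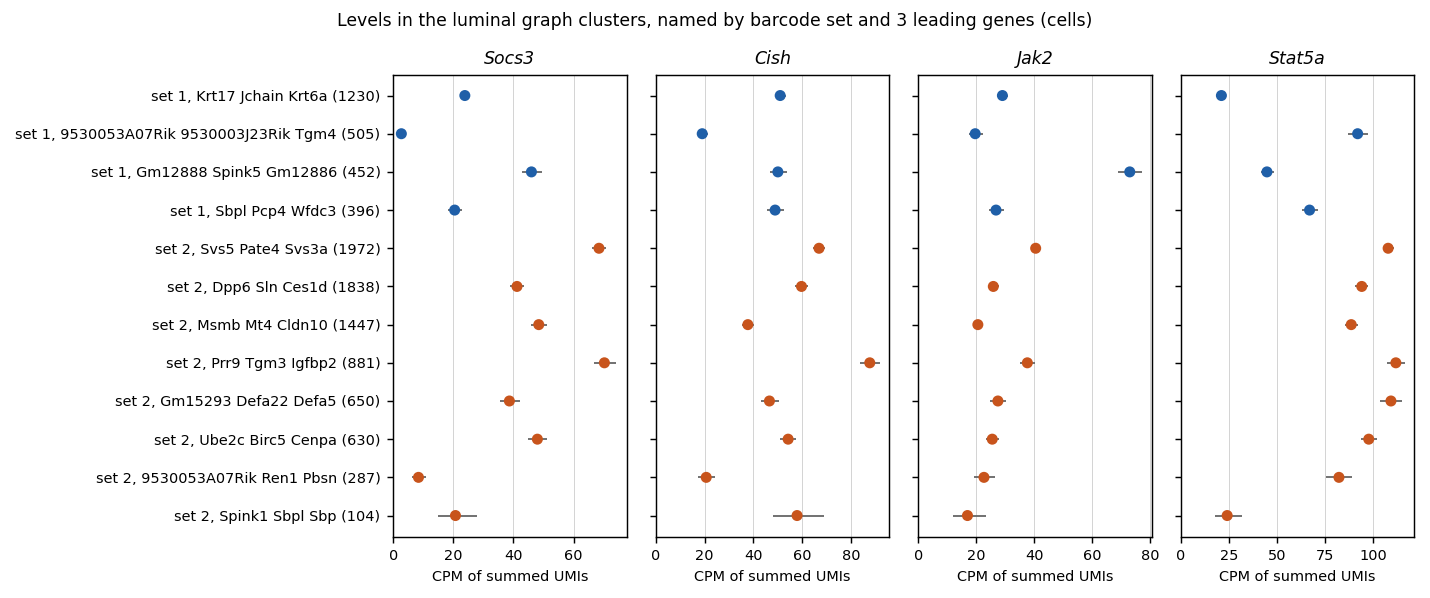
Levels of Socs3, Cish, Jak2 and Stat5a in CPM in the luminal graph clusters of sets 1 and 2, in rows named by set and leading genes in the order of cluster number (0, 3, 4 and 5 in set 1, then 0 to 5, 8 and 12 in set 2), with bars for exact Poisson 95% intervals. Jak2 is highest in cluster 4 of set 1 at 73.0 CPM, and Socs3 is lowest in the 2 clusters led by 9530053A07Rik, at 2.71 and 8.403 CPM.

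The EGFP feature gave another split of the same cells, at 16 or more against 8 or fewer EGFP UMIs per 10000. In basal cells of set 1 the log2 ratio of EGFP-high over EGFP-low cells was 1.08 for Jak2, 1.04 for Stat5a, 1.12 for Stat5b, -1.51 for Socs2, -0.74 for Socs3 and -0.40 for Jak1, each in the direction of the ARQ split. In basal cells of set 2 it was 0.87 (-0.03 to 1.85) for Jak2, 1.16 (0.32 to 2.08) for Socs1, -0.96 for Socs2 and -0.09 for Socs3, so the Socs3 difference of the ARQ split was not seen. Luminal ratios were 1.18 for Jak2 and 1.64 for Socs3 in set 1, and 2.41 for Socs3, 1.21 for Cish, 1.36 for Socs1, -0.90 for Socs2 and -1.08 for Jak1 in set 2.

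The same class was then compared between the sets, a difference that holds library, tissue and any change in cell make-up at once. In basal cells Stat5a was the only member past 2-fold, at 20.7 CPM in set 2 and 9.94 CPM in set 1, a log2 ratio of 1.06 (0.59 to 1.503). Socs1 was next at 0.79 (0.42 to 1.15) and Jak2 was lower in set 2 at -0.72 (-1.12 to -0.34). With graph clusters in place of gates Stat5a was 1.79, and in EGFP-high basal cells alone, a subset added after the data were seen, Stat5a was 0.79 (0.22 to 1.32) and Socs1 1.33 (0.87 to 1.79), so that Socs1 was then the member past 2-fold. The shares of all 11761 genes past 2-fold were 7.95% higher and 8.21% lower in set 2, beside 1 and 0 of 9 members. The basal cells of set 2 were few and shallow, at 293 cells with a median of 6034 UMIs against 1610 with 11348.

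In luminal cells Socs3 was past 2-fold higher in set 2, at a log2 ratio of 1.34, and Jak1 and Socs2 were past 2-fold lower, at -1.01 and -1.23, with Jak1 at the edge of 2-fold. Of all 15106 genes 15.7% were higher and 23.2% lower, with a median ratio of -0.19. Stat5a was 0.98, Stat5b 0.53, Cish 0.37, Socs1 0.20, Stat3 0.15 and Jak2 -0.07. Without the clusters led by other markers, which left 5683 of 7664 cells of set 2 and 2015 of 2025 of set 1, the ratios were 1.17 for Socs3, -1.03 for Jak1, -1.38 for Socs2, 0.94 for Stat5a, 0.501 for Stat5b, 0.28 for Cish, 0.21 for Socs1, 0.15 for Stat3 and -0.28 for Jak2.

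The luminal cells of the sets differ in their share with ARQ, and subsets by ARQ, added after the data were seen, gave other values. In cells with 5 or more ARQ UMIs, 6983 in set 2 and 308 in set 1, Jak2 was past 2-fold lower in set 2 at -1.04 (-1.15 to -0.92), Socs3 was 0.22 (0.09 to 0.35) and no longer past 2-fold, Jak1 was -0.71 and Socs2 -1.27. In ARQ-negative cells Cish was lower in set 2 at -1.22 (-1.71 to -0.77) and Stat3 at -0.28 (-0.51 to -0.06), both opposite to the values over all luminal cells. Socs3 at -0.60 (-1.33 to 0.04), Socs2 at 0.49 (-0.03 to 0.97) and Socs1 at -0.72 (-1.74 to 0.14) also had the opposite sign there, but their intervals include 0 and the side of set 2 rests on 20, 38 and 11 UMIs. Jak1 at -0.30 (-0.51 to -0.09), Jak2 at -0.18, Stat5a at 0.55 and Stat5b at 0.45 kept their sign in ARQ-negative cells, Jak1 being short of 2-fold. Markers differed between the luminal cells of set 2 and set 1 as well, with summed levels of 26.3 against 4591 CPM for the 6 myeloid genes, 67.1 against 445 CPM for the proximal, 4.19 against 19.8 CPM for the leukocyte and 1936 against 0.994 CPM for the seminal vesicle genes. Of the myeloid sum of set 1, Cd74 made up 3886 CPM and H2-Aa 703 CPM, seen in 94.1% and 71.7% of those luminal cells. Lyz2 (2.77 against 0.658 CPM), Fcer1g (0.563 against 0.160 CPM) and S100a8 (16.4 against 0.225 CPM) were higher in set 2. Tyrobp stood at 0.363 against 0.385 CPM. Of 10 immediate early and heat shock genes 6 were past 2-fold higher and 1 lower in set 2, with a median of 1.46. The part of these in the differences between the sets was not tested. The ARQ-negative luminal cells of set 2 are 164, and 53.0% of them lie in cluster 8.

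Other genes of the route or linked to it were read from a list of 62 receptors, ligands, kinases, inhibitors and targets, 60 of which had a row. The list includes Igf1r and its ligand Igf1, of IGF1 signalling, which the study places upstream of Jak2. In ARQ-positive basal cells 3 of 52 counted genes were past 2-fold higher and 2 lower in set 1, and 3 of 37 higher and 0 lower in set 2, beside the shares of all genes given above. Prlr, the prolactin receptor, led the list in set 1, at 31.7 against 5.22 CPM with a log2 ratio of 2.60 (2.16 to 3.08). In set 2 it stood at 29.6 against 6.97 CPM, from 60 and 3 UMIs, a ratio of 2.09 (0.47 to 4.404). Prlr thus had the direction of Jak2 in both sets, although the Jak2 interval of set 2 includes 0. Within basal cluster 6 of set 2 the Jak2 ratio was 0.03 (-1.12 to 1.36). As given above, Prlr was far higher in luminal than in basal cells. Cluster 4 of set 1, led by no basal marker, held 11.4% of ARQ-positive but 0.26% of ARQ-negative basal cells. The part of these cells in the Prlr ratio was not tested. Among list genes with at least 20 UMIs in each set, Pim1, a kinase that STATs switch on, had the lowest mean ratio over the sets. Pim1 stood at 389 against 928 CPM in set 1, a ratio of -1.25, and at 138 against 202 CPM in set 2, a ratio of -0.55. Of the other targets Fos had ratios of 1.30 and 0.06, Icam1 of -1.001 and -0.78 and Cebpb of -0.57 and -0.63. The receptors Igf1r, at 0.48 and 0.69, Il11ra1, at 0.67 and 0.46, and Il13ra1, at -0.34 and -0.65, lay short of 2-fold, as did the inhibitor Socs6 at -0.17 and -0.78. Stat6 gave 0.03 in set 1 and 22 against 1 UMI in set 2, a ratio of 2.22 (-0.41 to 7.59).

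In ARQ-high luminal cells 3 of 52 genes of the list were past 2-fold higher and 5 lower in set 1, where 7.63% and 9.2% of all genes were, and 6 of 54 higher and 12 lower in set 2, where 11.4% and 25.4% of all genes were. Fos stood at 522 against 185 CPM in set 1 and 678 against 159 CPM in set 2, ratios of 1.499 and 2.09. Lifr, the receptor for leukaemia inhibitory factor, had ratios of 1.38 and 1.68, and its ligand Lif was the reverse at -2.41 and -2.65, the last from 32 against 3 UMIs (-4.33 to -0.30). By the mean ratio over the sets, cytokine receptors and an inhibitor were among the lowest. Il13ra1 was at -1.17 and -3.85, Osmr at -0.04 and -3.24 and Socs5 at -0.59 and -2.64. Timp1, a STAT3 target, had ratios of -0.76 and -2.03. The targets Junb, at 0.66 and 2.18, Bcl3, at 0.66 and 1.29, and Pim3, at 0.56 and 1.27, were past 2-fold in set 2 alone, a difference between the sets that was not tested. Of 10 immediate early and heat shock genes, a list added after the data were seen, 6 were past 2-fold higher and 0 lower in ARQ-high luminal cells of set 2, with a median of 1.43, and 0 of 10 in set 1, beside the same shares of all genes. The part of such genes in the Socs3 and Cish differences of set 2 was not tested.

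Between the sets 3 of 52 genes of the list were past 2-fold higher and 14 lower in basal cells of set 2, where 7.95% and 8.21% of all genes were, and 3 of 56 higher and 20 lower in its luminal cells, where 15.7% and 23.2% of all genes were. The highest in basal cells were Csf1 at a log2 ratio of 1.85, Il6ra at 1.10, Fos at 1.05, Il11 at 0.81 and Socs4 at 0.80, and the lowest were Pias3 at -2.61 (-5.67 to -0.72, from 2 UMIs in set 2), Lif at -2.03, Il13ra1 at -2.01, Pim1 at -1.97 and Timp1 at -1.95. In luminal cells Igf1 at 1.95, Lifr at 1.81, Fos at 1.28, Junb at 0.79 and Pim3 at 0.75 were the highest. The lowest were Csf2 at -5.80 (-11.2 to -3.16), from 1 against 21 UMIs, Timp1 at -3.73, Osmr at -3.65, Stat4 at -3.65 and Il13ra1 at -3.60.

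The genes whose levels over 14 profiles, the classes and leukocyte subsets with 50 or more cells in each set, ran most like each member were read from 6323 genes, with Pearson's r of log2(CPM + 10). The profiles share libraries and, for leukocytes and their subsets, cells, so r is a description with no p. Stat5b ran most like Ptprcap at 0.99, Tbc1d10c at 0.99 and Sla2 at 0.98, and Stat3 most like Cwc25 at 0.98, Cfap36 at 0.98 and Chst12 at 0.97. Jak1 ran with Tmsb10 at 0.96, Bhlhe40 at 0.95 and Fnbp4 at 0.95, and Jak2 with Tbc1d10b at 0.96, Asxl2 at 0.96 and Dock8 at 0.95. Stat5a ran with Plcxd2 at 0.96, Ormdl1 at 0.96 and Leprotl1 at 0.95, its neighbour on the chromosome Stat5b not being among its 3. Socs1 ran with Thy1 at 0.95, Pianp at 0.93 and Smarca2 at 0.92, Socs2 with Igfbp7 at 0.95, Ppic at 0.94 and Spsb1 at 0.93, and Socs3 with Igf1 at 0.95, Ckb at 0.94 and Cd302 at 0.94. Cish had the weakest likeness, with Ggct at 0.94 and Cited4 and Btg2 at 0.89.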

How the data were processed

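Single-cell libraries (10x 3′ chemistry) were processed by the authors with Cell Ranger 3.1.0 against mm10 with the transgene sequences added, and the deposited table holds natural log values, ln(1 + 10000 × UMIs / total UMIs of the cell). The UMIs were recovered from these values by code, and 100% of them came out whole within 0.001, so sums of recovered UMIs were used in place of the deposited values. No column of another sample was found (0 columns). Cells with a doublet score of 0.25 or more (scanpy 1.11.5) were left out, 330 in all, and the rest were gated per cell on marker genes, such as a basal keratin sum of at least 16 per 10000 and Krt8 plus Krt18 of at least 16 per 10000 for luminal cells. Of basal-gated cells 329 of 1610 in set 1 and 94 of 293 in set 2 lay near a gate limit. Cells that met 2 lineages, 587 and 250, were left out as mixed. Of these, 471 and 94 met the basal keratin limit with Krt8 plus Krt18 of 64 or more per 10000. Such cells are in no basal or luminal comparison by gate. A further 440 and 425 cells passed no gate. Graph clusters (leidenalg 0.10.2, resolution 0.5) were made without the members. Poisson, binomial and conditional intervals are exact at 95% (scipy 1.17.1). Only the conditional interval of the ratio was tested on simulated data, drawn as Poisson sums that hold no variation between cells. Named genes were the 9 members, up to 5 list genes at each end of the ratio, and the 3 most alike genes per member. The members, lists and comparisons were chosen with earlier results of these data known. The alternatives were kept doublets, graph clusters in place of gates, cells thinned to 3000 UMIs, genes over 1% of UMIs left out, other ARQ limits, the EGFP split and, added after the data were seen, subsets of cells.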

Additional observations from a re-analysis of the deposited data

Results flagged for a closer look

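Socs2 in luminal cells by ARQ differed between the 2 barcode sets, with a log2 ratio of 0.20 (-0.08 to 0.47) in set 1, an interval that includes 0, and of -1.56 (-2.03 to -1.05) in set 2, with counting intervals that do not overlap. The ratio of set 1 ranged from -0.12 to 0.50 and that of set 2 from -2.01 to -0.49 over the alternatives run, and under the EGFP split both were below 0, at -0.12 (-0.43 to 0.17) and -0.90 (-1.36 to -0.41). The difference was not tested over replicates, since each set is 1 library.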

How the results depend on the processing

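No paired analysis was possible because the design has 1 library for PIN and 1 for PCa. Of 404 recomputed log2 ratios of members, 319 moved by less than their interval, 77 moved further without a change of called direction and 8 reversed. Of 45 recomputed counts of members past 2-fold, 37 stayed within 1.5 times. In basal cells by transgene of set 1 the count of 4 was 1 with graph clusters and 1 in cells basal by gate and by cluster. In set 2 the count of 1 was 2 with thinned cells, both higher, and 2 with ARQ-positive cells of 3 or more UMIs, both lower. In luminal cells by transgene of set 1 the count of 2 was 1 with 1 or more ARQ UMIs. Between the sets the basal count of 1 was 0 with thinned cells and 0 in EGFP-low cells, and the luminal count of 3 was 1 in ARQ-negative cells. Socs1 reversed between the sets from 0.79 to -0.13 in EGFP-low basal cells, and in luminal cells from 0.20 to -0.17 with thinned cells, -0.41 in cells with 5 or more ARQ UMIs and -0.72 in ARQ-negative cells. In ARQ-negative luminal cells the difference between the sets also reversed for Stat3 (0.15 to -0.28), Socs2 (-1.23 to 0.49), Socs3 (1.34 to -0.60) and Cish (0.37 to -1.22). Of these reversed values Stat3 and Cish in ARQ-negative cells and Socs1 in cells with 5 or more ARQ UMIs had intervals clear of 0. The splits by EGFP-low, by ARQ within the suffix comparison and by gate with cluster were chosen after the data were seen, and the cause of these changes was not tested. In basal cells of set 2 most members had under 100 UMIs, so small differences there were not detectable at this depth.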
